A study of Homo sapiens with 6 samples.

Results

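Expression of NR1H4 and of genes that make, conjugate, carry and sense bile acids was compared between control and versican knockdown cells of the human liver cancer line Huh7. The group is defined by gene symbol alone, by a rule that uses no threshold on the values, although its genes were picked with earlier results of these data known. It names 10 genes (NR1H4, NR0B2, BAAT, CYP7A1, CYP8B1, CYP27A1, SLC10A1, SLC27A5, ABCB11 and FGF19), of which 8 have a row among the 23344 rows of the deposited table. The expression of CYP7A1 and SLC10A1 was not analysed here. The control libraries (labelled shNC, n = 3) came from Huh7 cells given a control lentivirus, and the knockdown libraries (labelled sh2, n = 3) from Huh7 cells given a lentivirus against versican V1, an isoform of the matrix proteoglycan encoded by VCAN. All libraries thus come from 1 cell line that received virus, and the knockdown label names a single hairpin. The labels do not say that the 3 libraries of a group are separate cultures, so p-values cover only how far these libraries vary, possibly for technical reasons.

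NR1H4 encodes the nuclear receptor FXR, which is activated by bile acids and binds DNA mostly as a dimer with RXR, often at inverted repeats with 1 base between the arms. In hepatocytes it induces NR0B2, which encodes the co-repressor SHP and damps the synthesis enzymes CYP7A1 and CYP8B1, and ABCB11, which encodes the pump that exports bile salts into the canaliculus. In the ileum it induces FGF19, a hormone that signals to hepatocytes through FGFR4 and its partner KLB. CYP27A1 starts the alternative synthesis pathway in mitochondria, and SLC27A5 and BAAT activate bile acids with coenzyme A and join them to glycine or taurine.

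The sequences before the starts of the receptor gene, of BAAT and of ABCB11 are shown because NR1H4 and BAAT are the members that passed the test and ABCB11 is a textbook target of the receptor. Each is the 250 bases before a start in RefSeq (GRCh38.p14), written 5′ to 3′ on the strand of the gene. BAAT has a pair of starts in RefSeq. The bases just after the start were found in a GENCODE release 29 transcript of the gene for NR1H4 and ABCB11. They were not found for either start of BAAT. Capitals mark matches, on either strand, to AGGTCA, the core element of many nuclear receptors, or to GGNNCANTGNNCC, a loose inverted repeat with 1 base between the arms.
NR1H4, chr12:100503110-100503359, plus strand: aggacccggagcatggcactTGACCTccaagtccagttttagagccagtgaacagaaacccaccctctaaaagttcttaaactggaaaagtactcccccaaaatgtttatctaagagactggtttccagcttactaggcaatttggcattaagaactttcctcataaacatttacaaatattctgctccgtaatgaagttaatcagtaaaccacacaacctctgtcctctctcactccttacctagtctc
BAAT, first start, chr9:101383874-101384123, minus strand: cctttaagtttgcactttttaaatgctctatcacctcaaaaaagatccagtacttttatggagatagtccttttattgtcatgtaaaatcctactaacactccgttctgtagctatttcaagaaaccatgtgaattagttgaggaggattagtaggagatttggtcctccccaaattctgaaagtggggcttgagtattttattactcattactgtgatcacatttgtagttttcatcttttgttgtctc
BAAT, second start, chr9:101383565-101383814, minus strand: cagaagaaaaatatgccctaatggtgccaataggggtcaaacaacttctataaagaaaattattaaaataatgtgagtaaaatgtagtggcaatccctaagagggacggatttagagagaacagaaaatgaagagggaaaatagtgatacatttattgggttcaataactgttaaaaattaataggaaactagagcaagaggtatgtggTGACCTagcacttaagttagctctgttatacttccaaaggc
ABCB11, chr2:169031325-169031574, minus strand: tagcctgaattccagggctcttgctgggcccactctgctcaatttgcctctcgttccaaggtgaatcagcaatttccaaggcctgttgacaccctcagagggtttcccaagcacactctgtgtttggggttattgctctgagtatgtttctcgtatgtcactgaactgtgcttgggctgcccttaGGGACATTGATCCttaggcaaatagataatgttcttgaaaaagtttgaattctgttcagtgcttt

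The loose inverted repeat matched 1 time in these sequences, from 65 to 53 bases before the ABCB11 start, with the letters GGGACATTGATCC. It was present in 0.461% of 35114 RefSeq windows of the same length, and its letters were chosen after the ABCB11 sequence had been seen. The element AGGTCA matched on the opposite strand from 230 to 225 bases before the NR1H4 start and from 41 to 36 bases before the second BAAT start, and on the same strand from 149 to 144 bases before the start of SLC10A1, whose window is not shown. Of all windows, 12.1% hold it. Neither the strict repeat GGTCANTGACC (0.00854% of all windows) nor CAAGGTCA (1.14%, an NR5A2-type element that contains AGGTCA), CAAAGTCCA (0.325%, HNF4A-type) or TGTTTAC (2.98%, FOXA-type) matched in the windows of the 6 members that have one. These matches describe letters in the reference and were not tested for binding.

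The deposited values were treated as FPKM, that is, scaled to transcript length and library total, and they summed to between 851418 and 975501 per library. VCAN was 4.79 to 8.10 in control and 1.64 to 1.90 in knockdown libraries (log2 fold change -1.39, SE 0.19, limma adjusted p = 0.0103), with 1 row for all its isoforms. All 10 hepatocyte markers were present in every library, and their summed level was 5319 to 6648 in control and 5906 to 7705 in knockdown libraries. They went in both directions: TTR, the transthyretin gene, fell from 26.5 ± 3.22 to 11.01 ± 1.44 (SD, n = 3 each; limma adjusted p = 0.0077), the apolipoprotein genes APOA1 and APOH rose from 62.7 ± 22.1 to 127 ± 20.2 (adjusted p = 0.0325) and from 98.9 ± 14.2 to 146 ± 12.2 (adjusted p = 0.0396), and the other 7 did not pass. Leaving out a library kept the call of TTR in all 6 fits, that of APOA1 in 2 (without control replicate 1 or knockdown replicate 1) and that of APOH in 1 (without knockdown replicate 1), with an adjusted p of up to 0.135. The mitochondrially encoded genes held 17.55%, 15.98% and 19.17% of the summed values in control and 23.84%, 27.04% and 31.17% in knockdown replicates 1, 2 and 3. Of 12 blood cell markers 11 have a row, and their summed level was 76.5 to 92.5 in control libraries and 109 in knockdown replicates 1 and 3, but 216 in knockdown replicate 2. PPBP and S100A8, which mark platelets and myeloid cells, were listed at 0 in every library except knockdown replicate 2. Of these markers 4 were tested, and 1 rose and 0 fell. The marker that rose was LYZ (limma adjusted p = 0.0277). It was at 18.3, 24.72 and 24.84 in control and at 44.53, 68.21 and 37.79 in knockdown replicates 1, 2 and 3. S100A9 was at 1.65, 1.59 and 0.57 in control and at 4.13, 30.57 and 1.92 in knockdown replicates 1, 2 and 3. S100A9 (adjusted p = 0.213), CD14 and CD3D did not pass. In bulk RNA, more or fewer cells of a type and more or less RNA per cell cannot be told apart.

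Of the 8 genes with a row, 6 reached 1 in 3 or more libraries and were tested with limma on log2(value + 1), with p-values adjusted by the Benjamini-Hochberg method across the 13696 genes that met this filter. NR1H4 fell and BAAT rose; FGF19, NR0B2, CYP27A1 and SLC27A5 did not pass an adjusted p of 0.05, and ABCB11 and CYP8B1 were too low to be tested. Among all genes tested, 4.15% rose and 3.94% fell, 8.08% in all, so 2 calls among 6 genes is a count too small to set the group apart. After rescaling libraries to the total of their nuclear genes, 680 genes rose and 223 fell in place of 568 and 539, and FGF19 passed as well. The groups did not overlap for NR1H4, BAAT and FGF19, which was the case for 33.1% of all genes tested. The median log2 fold change of the 6 genes was -0.04, beside -0.03 for all genes tested.

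**Figure D1:**
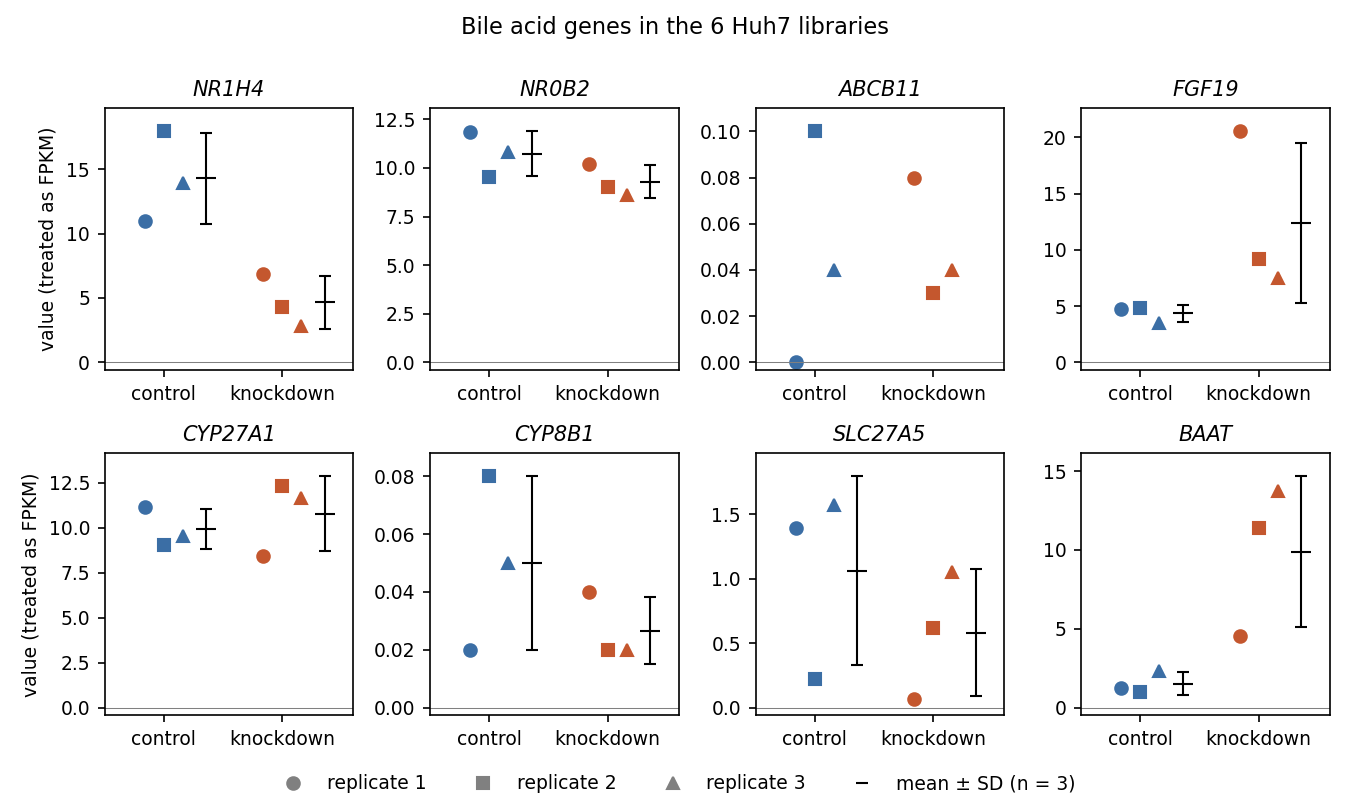
Value of each of the 8 genes in every library (treated as FPKM, each panel with its own linear axis from 0); symbols stand for replicates 1 to 3 and black bars for mean ± SD, left out for ABCB11, which was listed at 0 in 1 library. NR1H4 is lower and BAAT and FGF19 are higher in all knockdown than in all control libraries, while NR0B2 and CYP27A1 overlap, and ABCB11 and CYP8B1 stay at or below 0.10.

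The receptor gene NR1H4 was at 10.96, 17.94 and 13.93 in control replicates 1, 2 and 3 and at 6.88, 4.32 and 2.80 in knockdown replicates 1, 2 and 3. Every knockdown library was below every control library, and the control mean of 14.3 ± 3.5 was 3.06 times the knockdown mean of 4.67 ± 2.06 (SD, n = 3 each). The log2 fold change was -1.47 (SE 0.27, 95% interval -2.09 to -0.85, limma adjusted p = 0.0220), the seventh largest of 539 falls. GENCODE release 29 lists 11 transcripts for NR1H4, 9 of them coding, from 7 different starts; these isoforms share a single row and were not separated. The NR1H4 call was lost without control replicate 1, 2 or 3 (adjusted p = 0.0586, 0.0957 and 0.0605) and without knockdown replicate 2 (adjusted p = 0.0740), and kept without knockdown replicate 1 or 3 (adjusted p = 0.0020 and 0.0483). Its log2 fold change stayed between -1.74 and -1.21 over these 6 fits. With low genes left in, its limma adjusted p was 0.0648.

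NR0B2, the co-repressor gene downstream of the receptor, was at 11.85, 9.56 and 10.81 in control and at 10.23, 9.04 and 8.63 in knockdown replicates 1, 2 and 3. The groups overlapped, since knockdown replicate 1 was above control replicate 2. The log2 fold change was -0.19 (95% interval -0.50 to 0.12, limma adjusted p = 0.400), an interval that leaves out a fall as large as that of NR1H4. The ratio of NR0B2 to NR1H4 was 1.08, 0.533 and 0.776 in control and 1.49, 2.09 and 3.08 in knockdown replicates 1, 2 and 3, with every knockdown library above every control library. The difference log2(NR0B2 + 1) minus log2(NR1H4 + 1) was higher in knockdown by 1.28. Its exact two-sided permutation p = 0.1 is the smallest that 3 against 3 libraries allow. The ratio and this difference largely restate the fall of NR1H4, since NR0B2 changed little, and are not a separate result.

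ABCB11, the bile salt export pump gene whose window carries the loose inverted repeat shown above, was listed at 0, 0.10 and 0.04 in control and at 0.08, 0.03 and 0.04 in knockdown replicates 1, 2 and 3. No library reached 1, the level that the filter asked for. The number of reads is unknown, so a change of ABCB11 could not be assessed.

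FGF19, the hormone gene induced by the receptor in ileum, was at 4.77, 4.83 and 3.48 in control and at 20.55, 9.16 and 7.51 in knockdown replicates 1, 2 and 3. All knockdown libraries were above all control libraries, and knockdown replicate 1 was far above the other knockdown libraries. The means were 4.36 ± 0.763 and 12.4 ± 7.10 (SD, n = 3 each), a ratio of 2.85. The log2 fold change was 1.21 (SE 0.32, 95% interval 0.49 to 1.93) and missed the threshold (limma adjusted p = 0.0516). The adjusted p was 0.0392 after rescaling libraries to the total of their nuclear genes, 0.0498 with a pseudocount of 0.1, 0.0460 with the replicate block and 0.0126 without knockdown replicate 1, where the log2 fold change was 0.81, and it was between 0.0559 and 0.140 in the other 9 alternatives. Bile duct cells can also make FGF19. Of 8 bile duct markers, TFF3, MUC1 and SOX9 rose (limma adjusted p = 0.0402, 0.0131 and 0.0334). KRT19 (mean 345.7 in control and 348.3 in knockdown), EPCAM, KRT7 and CFTR did not pass, and AQP1 was too low to be tested. The summed level was 547 to 643 in control and 632 to 683 in knockdown libraries. TFF3, MUC1 and SOX9 were highest in knockdown replicate 3. EPCAM (260.99) and KRT7 (2.58) were highest in knockdown replicate 1, as were FGF19 and the summed level. KRT19, CFTR and AQP1 were highest in a control library. None of these 8 markers was at 0 in any library, and their part in the FGF19 values was not tested. MUC1 lost its call without control replicate 2 (adjusted p = 0.0572), SOX9 without any one library except knockdown replicate 1, and TFF3 without any except knockdown replicate 1 or 2, with an adjusted p of up to 0.135.

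CYP27A1, the first enzyme of the alternative synthesis pathway, was at 11.17, 9.04 and 9.53 in control and at 8.43, 12.29 and 11.63 in knockdown replicates 1, 2 and 3. The groups overlapped, with the lowest and the highest value both in knockdown libraries (log2 fold change 0.10, 95% interval -0.28 to 0.48, limma adjusted p = 0.731). CYP8B1, the sterol 12-alpha-hydroxylase gene that sets the share of cholic acid, was at 0.02, 0.08 and 0.05 in control and at 0.04, 0.02 and 0.02 in knockdown replicates 1, 2 and 3. Values are written to 2 decimals, so rounding alone can move a value of 0.02 by 25%, and a change of CYP8B1 could not be assessed.

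BAAT, which encodes the enzyme that joins bile acids to glycine or taurine, was at 1.21, 0.97 and 2.33 in control and at 4.52, 11.37 and 13.74 in knockdown replicates 1, 2 and 3. Every knockdown library was above every control library, and the knockdown mean of 9.88 ± 4.79 was 6.57 times the control mean of 1.503 ± 0.726 (SD, n = 3 each). On the log2(value + 1) scale, which understates changes of low genes, the difference was 2.04 (SE 0.36, 95% interval 1.22 to 2.86, limma adjusted p = 0.0198). This was rank 14 by size among 568 rises. BAAT reached 1 in 2 control and 3 knockdown libraries, so the knockdown group alone met the filter. The call was lost without control replicate 1 or 2 (adjusted p = 0.0689 and 0.0894), without knockdown replicate 2 or 3 (adjusted p = 0.0749 and 0.0613) and with low genes left in (adjusted p = 0.0607), and kept without control replicate 3 or knockdown replicate 1 (adjusted p = 0.0416 and 0.00054). Without knockdown replicate 2, the only library with PPBP and S100A8 above 0, the log2 fold change of BAAT was 1.89. BAAT was higher in knockdown replicate 3 than in knockdown replicate 2. The blood cell markers LYZ and S100A9 also exceeded their control values in knockdown replicates 1 and 3. Leaving out knockdown replicate 2 thus does not settle the part of blood cell RNA in the BAAT values, which was not tested.

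SLC27A5, which encodes the bile acid coenzyme A ligase that acts before BAAT, was at 1.39, 0.22 and 1.57 in control and at 0.07, 0.62 and 1.05 in knockdown replicates 1, 2 and 3. Each group spread over several-fold and the groups overlapped (log2 fold change -0.36, 95% interval -1.14 to 0.43, limma adjusted p = 0.527). It passed the filter with exactly 3 libraries at 1 or more. The interval of SLC27A5 lies below the estimate for BAAT; the difference between the 2 genes of the conjugation pathway was not tested.

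By mean level per length, the order in control libraries was NR1H4 (14.3), NR0B2 (10.7), CYP27A1 (9.91), FGF19 (4.36), BAAT (1.503) and SLC27A5 (1.06), followed by CYP8B1 and ABCB11 at about 0.05 each. In this order the ranges overlapped between NR1H4 and NR0B2, NR0B2 and CYP27A1, BAAT and SLC27A5, and CYP8B1 and ABCB11, while FGF19 was apart from both of its neighbours. In knockdown libraries the order was FGF19 (12.4), CYP27A1 (10.8), BAAT (9.88), NR0B2 (9.30) and NR1H4 (4.67), then SLC27A5 (0.58), ABCB11 and CYP8B1. Among the first 4, the ranges overlapped between FGF19 and CYP27A1, CYP27A1 and BAAT, and BAAT and NR0B2. NR1H4 was below NR0B2 and above SLC27A5 in every knockdown library.

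Other enzymes of bile acid synthesis were taken from a list of 16 genes, of which 14 have a row and 12 were tested. AKR1D1, the 5-beta-reductase that shapes the sterol ring, rose, and ABCD3, a peroxisomal transporter of bile acid precursors, fell; the list median was -0.13 beside -0.03 for all genes. These are 2 calls among 12 genes, where 8.08% of all genes tested were called. At an unadjusted limma p of 0.05, 4 were lower and 1 higher, where 15.95% of all genes were lower and 13.39% higher. Counts this small do not set the list apart. AKR1D1 was at 0.88, 0.72 and 1.26 in control and at 2.23, 6.02 and 8.30 in knockdown replicates 1, 2 and 3 (log2 fold change 1.62, SE 0.35, limma adjusted p = 0.0326). As for BAAT, all knockdown libraries were above all control libraries and knockdown replicate 1 was the lowest of the 3. AKR1D1 met the filter through the 3 knockdown libraries, since control replicate 1 and 2 were below 1, so its being tested depended on the group where it is high. ABCD3 went from 68.4 ± 9.76 to 42.5 ± 4.83 (SD, n = 3 each; log2 fold change -0.67, SE 0.14, limma adjusted p = 0.0317). Both calls were lost without any one library except knockdown replicate 1 (adjusted p of 0.0510 to 0.126 for ABCD3 and of 0.0696 to 0.125 for AKR1D1), and that of ABCD3 also after the rescaling to nuclear genes (adjusted p = 0.0778). The peroxisomal oxidase gene ACOX2 (-0.45, adjusted p = 0.0766), the thioesterase gene ACOT8 (-0.31, adjusted p = 0.124) and FDX1, which encodes the ferredoxin that feeds electrons to mitochondrial P450 enzymes such as CYP27A1 (-0.54, adjusted p = 0.143), did not pass.

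Of 17 other transporters of bile salts and biliary lipids, 15 have a row and 11 were tested; 2 rose and 0 fell, where 4.15% of all genes rose and 3.94% fell, and the median was 0.38 beside -0.03 for all genes. ABCB1, the multidrug exporter gene, was at 19.31, 19.73 and 21.22 in control and at 38.97, 58.12 and 57.74 in knockdown replicates 1, 2 and 3 (log2 fold change 1.30, SE 0.16, limma adjusted p = 0.00969). ATP8B1, which encodes a phospholipid flippase of the canalicular membrane, rose from 4.72 ± 0.563 to 8.11 ± 0.744 (SD, n = 3 each; 0.67, SE 0.15, adjusted p = 0.0322). ABCC3, a basolateral exporter gene (0.63, adjusted p = 0.0638), ABCC2, a canalicular exporter gene (0.41, adjusted p = 0.277), and SLC51A, a subunit of the basolateral bile acid transporter (0.38, adjusted p = 0.338), did not pass. Without control replicate 2 the ABCB1 call was lost (adjusted p = 0.0508), and that of ATP8B1 was kept only without knockdown replicate 1 among the 6 fits that leave out a library, with an adjusted p of 0.0740 to 0.121 in the other 5. At an unadjusted limma p of 0.05, 3 of the 11 were higher and 0 lower, where 13.39% of all genes were higher and 15.95% lower. The hepatocyte uptake carriers SLCO1B1 and SLCO1B3 were not tested, with at most 0.44 in any library.

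SLC51B, which encodes the other subunit of that transporter and is a known target of the receptor, was chosen after its values were seen. It was at 6.43, 5.4 and 5.94 in control and at 9.53, 2.94 and 2.45 in knockdown replicates 1, 2 and 3 (log2 fold change -0.40, 95% interval -1.25 to 0.44, limma adjusted p = 0.510). Knockdown replicate 1 was above and knockdown replicates 2 and 3 were below all control libraries. Without knockdown replicate 1 the log2 fold change of SLC51B was -0.91 and passed (adjusted p = 0.0054), as it did in none of the other 12 alternatives. The same library held the highest FGF19 and NR1H4 values and the lowest BAAT and AKR1D1 values of the knockdown group.

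Of 27 other receptors, partners and co-regulators of bile acid genes, 26 have a row and 21 were tested with limma; 0 rose and 0 fell at an adjusted p of 0.05, and 3 were lower and 0 higher at an unadjusted p of 0.05. Over all genes tested, 15.95% were lower and 13.39% higher at that level, so 3 of 21 lower is near the share over all genes. Plain limma moderation, without a mean-variance trend, also gave 0 calls, and 2 genes were called lower without knockdown replicate 1. The 3 genes were NCOA2, a co-activator gene (log2 fold change -0.54, adjusted p = 0.0626), NR1H3, which encodes the oxysterol receptor LXR-alpha (-0.33, adjusted p = 0.135), and HNF4A, a hepatocyte nuclear receptor gene (-0.33, adjusted p = 0.162). The list median was -0.05. The dimer partner gene RXRA had 13.2 ± 0.875 in control and 11.2 ± 1.80 in knockdown (-0.24, 95% interval -0.57 to 0.09, adjusted p = 0.317). FGFR4, the receptor gene for FGF19, had a log2 fold change of 0.15 (adjusted p = 0.447), and its partner KLB one of -0.04 (adjusted p = 0.884), which was 0.06 after the rescaling to nuclear genes, 0.07 without control replicate 3 and 0.04 without knockdown replicate 1; RXRA, FGFR4 and KLB were chosen for their roles, outside the naming rule.

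Of 17 other genes reported as targets of the receptor in liver cells, all have a row and 14 were tested; 5 rose and 1 fell, where 4.15% of all genes rose and 3.94% fell, and the median was 0.21 beside -0.03 for all genes. UGT2B4, which encodes a glucuronosyltransferase of bile acids, was at 8.18, 5.66 and 9.22 in control and at 22.24, 36.75 and 42.34 in knockdown replicates 1, 2 and 3 (log2 fold change 1.98, SE 0.25, limma adjusted p = 0.00969). All knockdown libraries were above all control libraries, and the call held in all 13 alternatives, with an adjusted p of up to 0.0456. The heparan sulfate proteoglycan gene SDC1 fell from 20.7 ± 1.85 to 9.89 ± 0.863 (SD, n = 3 each; -0.996, SE 0.13, adjusted p = 0.0100). The fibrinogen genes FGA, FGB and FGG, which are among the 5 rises, rose by 0.41, 0.70 and 0.67 (limma adjusted p = 0.04875, 0.0188 and 0.0109). ICAM1, an adhesion molecule gene, rose by 1.198 (adjusted p = 0.0396). Plain moderation and the replicate block each gave 3 rises and 1 fall in this list, which was not tested as a set. KNG1 (-0.15, adjusted p = 0.475), C3 (0.41, adjusted p = 0.193) and SQSTM1 (0.22, adjusted p = 0.233) did not pass. At an unadjusted limma p of 0.05, 5 of the 14 were higher and 1 lower, where 13.39% of all genes were higher and 15.95% lower. The SDC1 call was lost without control replicate 2 (adjusted p = 0.0517). That of FGG was lost without control replicate 2 or knockdown replicate 2 (adjusted p = 0.0564 and 0.0571), and that of FGB was kept only without control replicate 1 or knockdown replicate 1, with an adjusted p of 0.0654 to 0.0845 in the other 4 fits. FGA kept its call only without knockdown replicate 1 (adjusted p of 0.0946 to 0.175 in the other 5 fits), and ICAM1 only without control replicate 2 (adjusted p of 0.0534 to 0.163 in the other 5). With low genes left in, UGT2B4, ABCB1, SDC1, FGG and FGB kept their calls, with an adjusted p of 0.0366 to 0.0496, and AKR1D1, ABCD3, ATP8B1, FGA and ICAM1 lost theirs, with an adjusted p of 0.0717 to 0.0973.

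**Figure D2:**
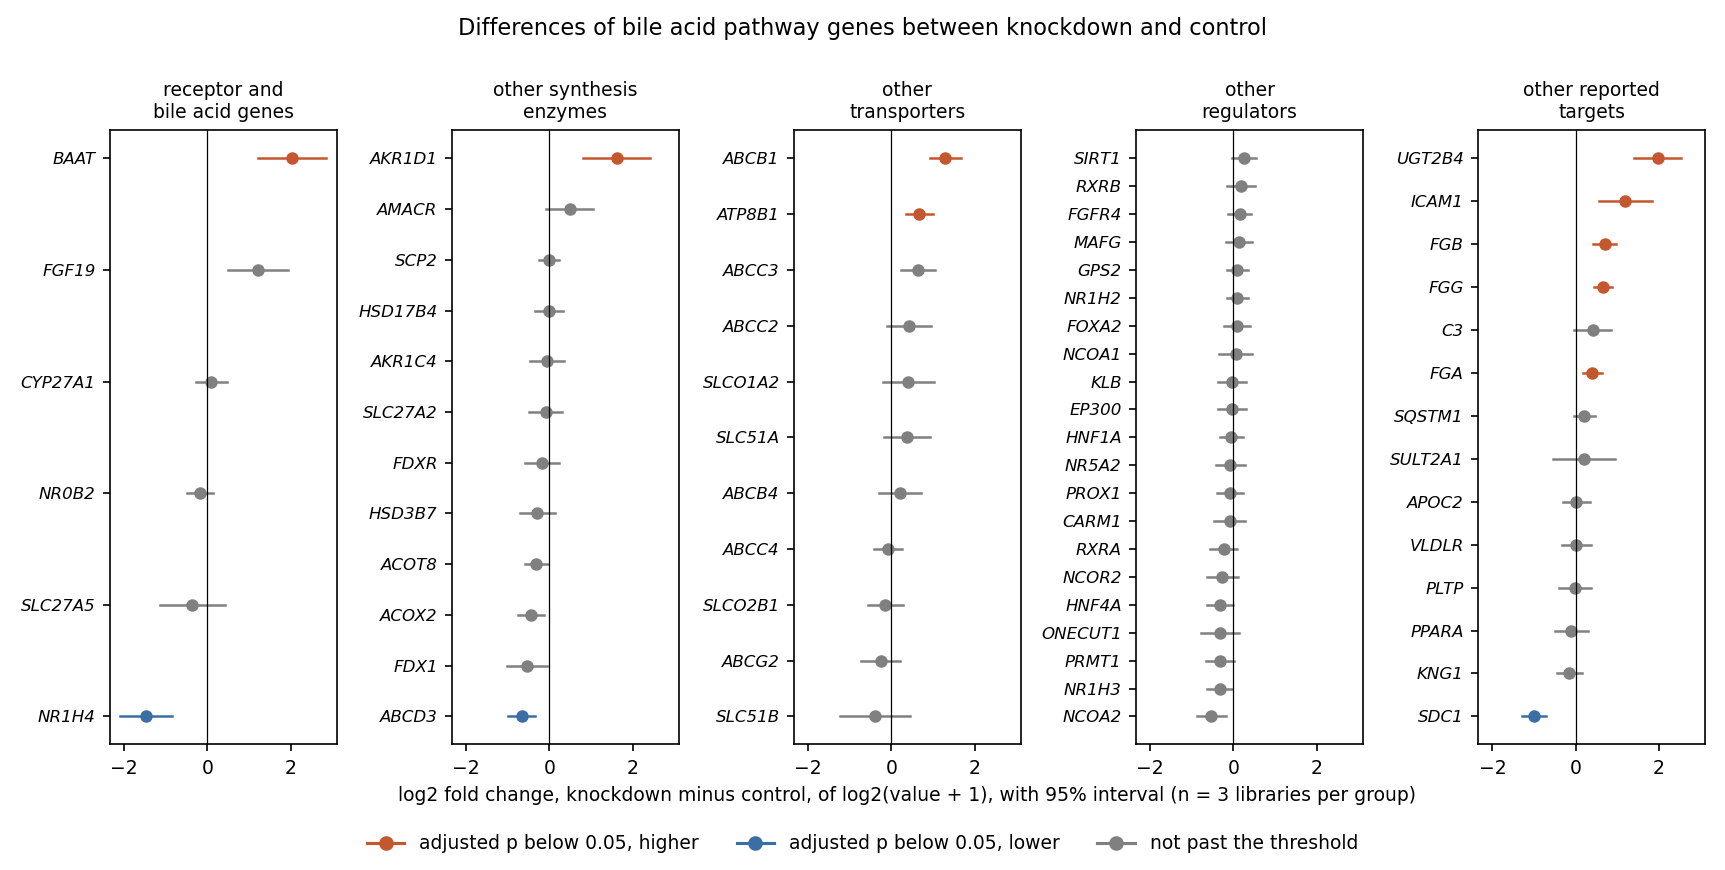
Log2 fold change of log2(value + 1), knockdown minus control, with its 95% interval for each gene tested among the receptor and bile acid genes and in 4 lists of other pathway genes (n = 3 libraries per group); orange and blue mark genes that rose and fell at an adjusted p below 0.05. NR1H4 (-1.47) and BAAT (2.04) stand at opposite ends of their panel, and no gene of the 21 regulators is marked.

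The genes whose profile was nearest to that of NR1H4 were found by the root mean square distance, over the 6 libraries, of log2(value + 1) minus the control mean. The nearest 5 of 13696 genes were CEBPA, a hepatocyte transcription factor gene (distance 0.121), SOX13, a transcription factor gene (0.143), NTS, which encodes neurotensin (0.21), NT5E, the ecto-5'-nucleotidase gene (0.217), and PRMT5, an arginine methyltransferase gene (0.242). CEBPA was at 42.79, 64.46 and 44.40 in control and at 26.75, 19.76 and 12.33 in knockdown replicates 1, 2 and 3. In CEBPA as in NR1H4, control replicate 2 was the highest and knockdown replicate 3 the lowest library. These libraries also had the lowest and the highest share of mitochondrially encoded genes, a relation that was not tested. A distance of this kind over 6 libraries of 2 groups is a description, and many genes that fell can share it.

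**Figure D3:**
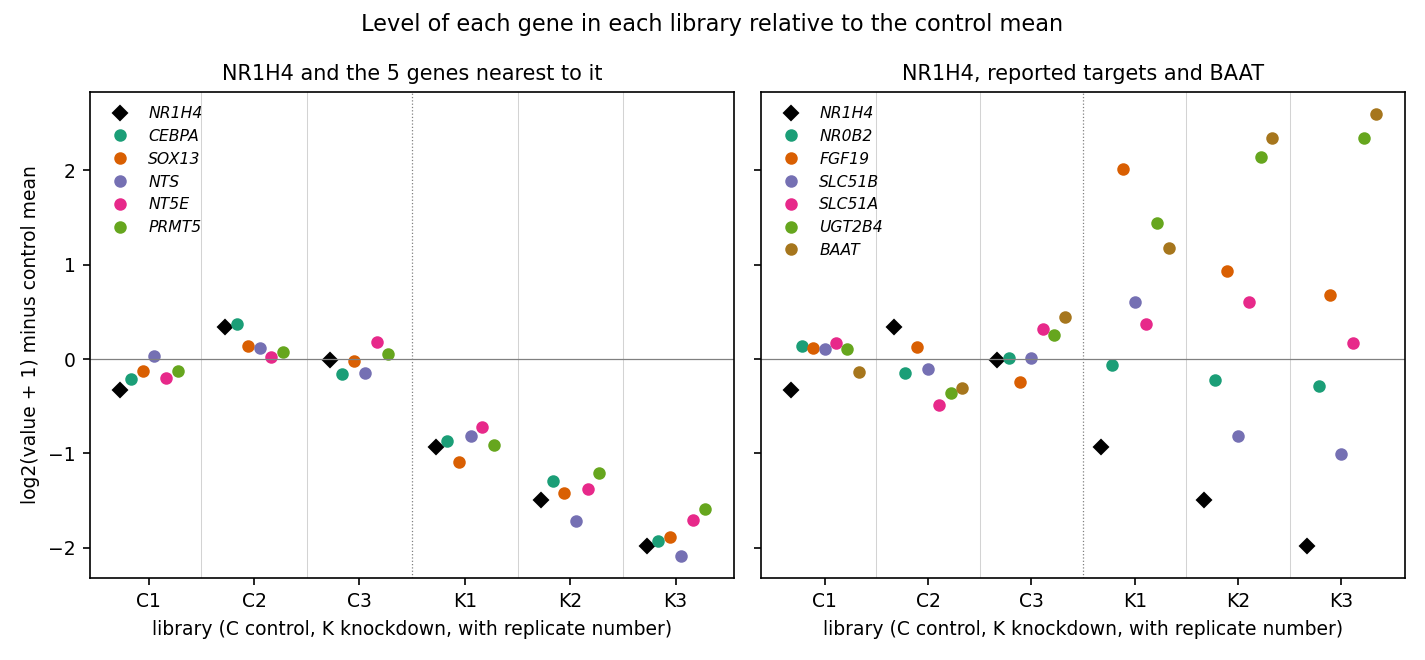
Level of each gene in each library as log2(value + 1) minus its control mean, for NR1H4 (black diamonds) with the 5 nearest genes on the left and with NR0B2, BAAT and reported targets of the receptor on the right; C and K are control and knockdown libraries with their replicate numbers, and points are set side by side for legibility. On the left the genes lie close together in every library. On the right FGF19, UGT2B4, BAAT and SLC51A lie above the control mean in all knockdown libraries. NR1H4 and, by less, NR0B2 lie below it in all of them, and SLC51B lies on both sides.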

How the data were processed

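TruSeq libraries were made from Trizol-extracted RNA, per the labels' protocols. The authors deposited 1 table of values per gene and library, treated here as FPKM; its unit is not named, and TPM of an incomplete gene set cannot be told apart from it. The submitters' processing notes list RSEM 1.1.17 and Bowtie2 2.2.6 among their tools, with no roles, and the mouse build mm10, although all gene IDs are human; no annotation release is given in the sources used here. The only coordinates given are those of RefSeq promoters, which were found for 6 of 10 genes. Read depth is unknown.

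Groups and replicate numbers came from the titles; the labels name no batch. The 13696 genes that reached 1 in 3 or more libraries were tested on log2(value + 1) with limma 3.58.1 in R 4.3.3 (mean-variance trend, robust moderation, two-sided, adjusted by the Benjamini-Hochberg method across those genes). "Rose" and "fell" mean an adjusted p below 0.05. Members, lists and alternatives were chosen with earlier results of these data known. Named were VCAN, all members, in each list the genes past the threshold and up to 3 more with the smallest p, and the 5 genes nearest to NR1H4; exceptions are stated. No p was adjusted over a list alone and no list was tested as a set.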

Additional observations from a re-analysis of the deposited data

How the results depend on the processing

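Alternatives were to use a pseudocount of 0.1, to keep low genes (no filter), a filter on the mean, quantile normalization, a rescaling to nuclear genes (without the mitochondrially encoded ones), plain moderation, the replicate block and leaving out each library. Of 47 genes run under them, the direction of KLB alone reversed, from -0.04 to 0.063 with the rescaling, 0.068 without control replicate 3 and 0.039 without knockdown replicate 1 (-0.117 to 0.068 over the fits that leave out 1 library), and none of these values passed the test. With no filter, 221 genes in all, 0 of the bile acid genes, 0 synthesis genes and 1 transporter passed, against 1107, 2, 2 and 2, and NR1H4 kept its log2 fold change of -1.47 with an adjusted p = 0.0648; more genes were tested there (23339). Plain moderation gave 727 genes in all and 1 synthesis gene, and the rescaling gave 1 synthesis gene. The rescaling gave 680 genes higher and 223 lower, against 568 and 539. Leaving out 1 library gave 56 to 3284 genes in all (56 without control replicate 2, 3284 without knockdown replicate 1), 0 to 3 bile acid genes, 0 to 5 synthesis genes, 0 to 4 transporters, 0 to 2 regulators and 2 to 5 reported targets, and a log2 fold change of NR1H4 from -1.74 to -1.21. Of 594 further values for 46 named genes, 477 stayed on their side of the threshold, 104 lost and 10 gained the call. Same-numbered libraries are not said to be paired, and their deviations from the group means correlated at 0.053, 0.105 and 0.135 over genes; control replicate 1 correlated more with knockdown replicate 3 (0.08). With the replicate block 861 genes passed, among them 3 bile acid genes, FGF19 being the third, while FGA (adjusted p = 0.0573), ICAM1 (0.0591), APOA1 (0.0532), APOH (0.0711) and TFF3 (0.0597) lost the call. The unknown read depth limits what can be said of ABCB11 and CYP8B1.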

Other observations

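The distance used for NR1H4 was also applied to BAAT and FGF19, a choice made after the data were seen, and its results are descriptions with no test. The genes nearest to BAAT were TMEM27, a collectrin gene (distance 0.185), THBS3, a thrombospondin gene (0.199), the glucuronosyltransferase gene UGT2B4 (0.214), the keratin gene KRT17 (0.243) and the apolipoprotein gene APOA4 (0.263). APOA4 was at 1.49, 0.56 and 2.09 in control and at 3.81, 7.70 and 10.11 in knockdown replicates 1, 2 and 3, so that, as in BAAT, control replicate 2 was the lowest library and knockdown replicate 3 the highest. KRT17 was listed at 0, 0 and 0.14 in control and at 2.18, 4.16 and 5.31 in knockdown replicates 1, 2 and 3. It met the filter through the 3 knockdown libraries alone, so its being compared depended on the group where it is high.

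Among the genes nearest to FGF19 were TFPI2 (distance 0.198) and SERPINE2 (0.222), which encode protease inhibitors, CD55, a complement regulator gene (0.223), and SH3BP2, an adaptor protein gene (0.229). Each of these 4 genes had its highest value in knockdown replicate 1. TFPI2 rose from 1.34 ± 0.119 to 4.69 ± 2.10 (SD, n = 3 each; limma log2 fold change 1.22, adjusted p = 0.0265), a call kept without knockdown replicate 1 or 3 and lost without any other library, with an adjusted p of up to 0.0968. CD55 was at 5.95, 5.37 and 4.85 in control and at 21.74, 7.79 and 8.47 in knockdown replicates 1, 2 and 3, and did not pass the test (limma log2 fold change 0.96, adjusted p = 0.0988).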
